A study of Mus musculus with 9 samples.

Results

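The genes described here are 36 symbols of glycolysis and of the hypoxia-inducible factor (HIF) response, found by their gene symbol among the 15552 protein-coding genes counted in MyC-CaP cells, a line derived from a prostate tumor of a MYC-transgenic mouse. Of these symbols, 35 had a row. Egln3 was not analysed here. Aldoa belonged to 2 identifiers, which were kept apart, so that 36 identifiers were followed and 34 of them, out of 11373 genes in all, had enough counts to be tested. They fall into 20 tested identifiers of glycolysis, from glucose uptake to lactate export, 13 other HIF targets, and Hif1a itself.

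All 9 libraries came from cells starved without serum or calcium, and carry the label of NRG1 treatment, those at 0 h included. Recombinant NRG1, which binds HER3, was used at 15 ng/mL. The study took time 0 as the reference for the later times. RNA was taken at 0 h, 12 h and 24 h, with 3 libraries labelled as biological replicates at each time. Libraries without NRG1 at 12 h or 24 h were not analysed here, so time with NRG1 and time in culture cannot be told apart. The cells are 1 established line plated in replicate wells, and the p-values measure the spread between those wells.

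Glycolysis splits glucose into pyruvate in the cytosol, and lactate dehydrogenase turns pyruvate into lactate, which restores the NAD+ that the pathway consumes. HIF-1 is a dimer of an oxygen-regulated alpha subunit, encoded by Hif1a, and a stable partner. When oxygen is ample, prolyl hydroxylases of the Egln family mark the alpha subunit for degradation, and growth factor signaling can raise its synthesis. The dimer binds a short core in target promoters, and its targets include most glycolytic enzymes, the glucose transporter Slc2a1, kinases that keep pyruvate out of mitochondria, mitophagy receptors and secreted vascular factors. Many of the same glycolytic genes are known targets of MYC, which the MyC-CaP transgene supplies.

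Depth lay between 28467089 and 39239760 counts per library, and the ranges of the 3 times overlapped. Replicates differed by more than counting noise, with chi-square values per degree of freedom between 3.75 and 10.1, and the values above 9 involved replicate 3 of the 12 h libraries. Transcripts of the prostate lineage were present, with Foxa1 at 281 CPM (counts scaled to the same library size) and Hoxb13 at 84.3 CPM at 0 h. General epithelial markers were near 0: Epcam had at most 3 counts, Cdh1 at most 4 and Krt18 at most 17 in any library, whereas Krt8 stood at 18.2 CPM. Of 4 endothelial markers none passed 10 counts in any library, and of 5 immune markers only Cd68 did. The 6 fibroblast markers summed to between 15.3 and 18 CPM in every library, with Pdgfra alone at 16.8 CPM at 0 h. The share of counts from mitochondrially encoded genes differed between the times in the opposite direction to most members, at 1.46% ± 0.0421 (SD, n = 3) at 0 h, 1.16% ± 0.0337 at 12 h and 1.27% ± 0.0757 at 24 h, and its part in the results was not tested.

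Most members were higher at 12 h than at 0 h, by small amounts. A change in the share of cells of a kind and a change in RNA per cell cannot be told apart in bulk libraries. In edgeR's quasi-likelihood test, with p-values adjusted over all genes tested, 21 of the 34 identifiers (61.8%) were higher than at 0 h at an adjusted p of at most 0.05, against 13.6% of all genes tested. None was lower, against 11.9% of all genes, and 1 was lower at an unadjusted p under 0.05 and none by DESeq2. The remaining 13 did not pass, and 28 of the 34 fitted values were above 0. The median log2 fold change of the members was 0.17, beside -0.0028 for all genes tested. Adm, which encodes the secreted vasodilator adrenomedullin, was the only member that passed with a fold change of at least 1.5. Of all genes, 2.29% did so in either direction. The values of the 12 h libraries lay above all those of the 0 h libraries for 21 identifiers, against 19.9% of all genes tested.

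At 24 h, 27 of the 34 identifiers did not pass against 0 h. Of the rest, 3 identifiers were higher (Pgk1, Higd1a and Car9) and 4 were lower (Hk2, Pfkfb3, Aldoc and Ankrd37), against 9.67% and 7.76% of all genes tested. No member passed with a fold change of 1.5, which 2.27% of all genes did, and the highest value was 0.26 on the log2 scale, for Car9. The count of 7 was 4 without 24 h replicate 1 or 24 h replicate 2. Between 12 h and 24 h, 15 identifiers (44.1%) fell, against 3.06% of all genes, and none rose, against 1.97%, also at an unadjusted p under 0.05 (0 identifiers) and by DESeq2 (0). All 3 libraries at 24 h lay below those at 12 h for 23 identifiers, against 13.6% of all genes. Adm again was the only member that passed with a fold change of at least 1.5, as 0.29% of all genes did. This comparison rested on few libraries: 7 members passed without 24 h replicate 1 or 24 h replicate 3, and 9 without 12 h replicate 1 or 24 h replicate 2. The comparisons share libraries, so a value at 12 h enters both the first and the last.

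**Figure D1:**
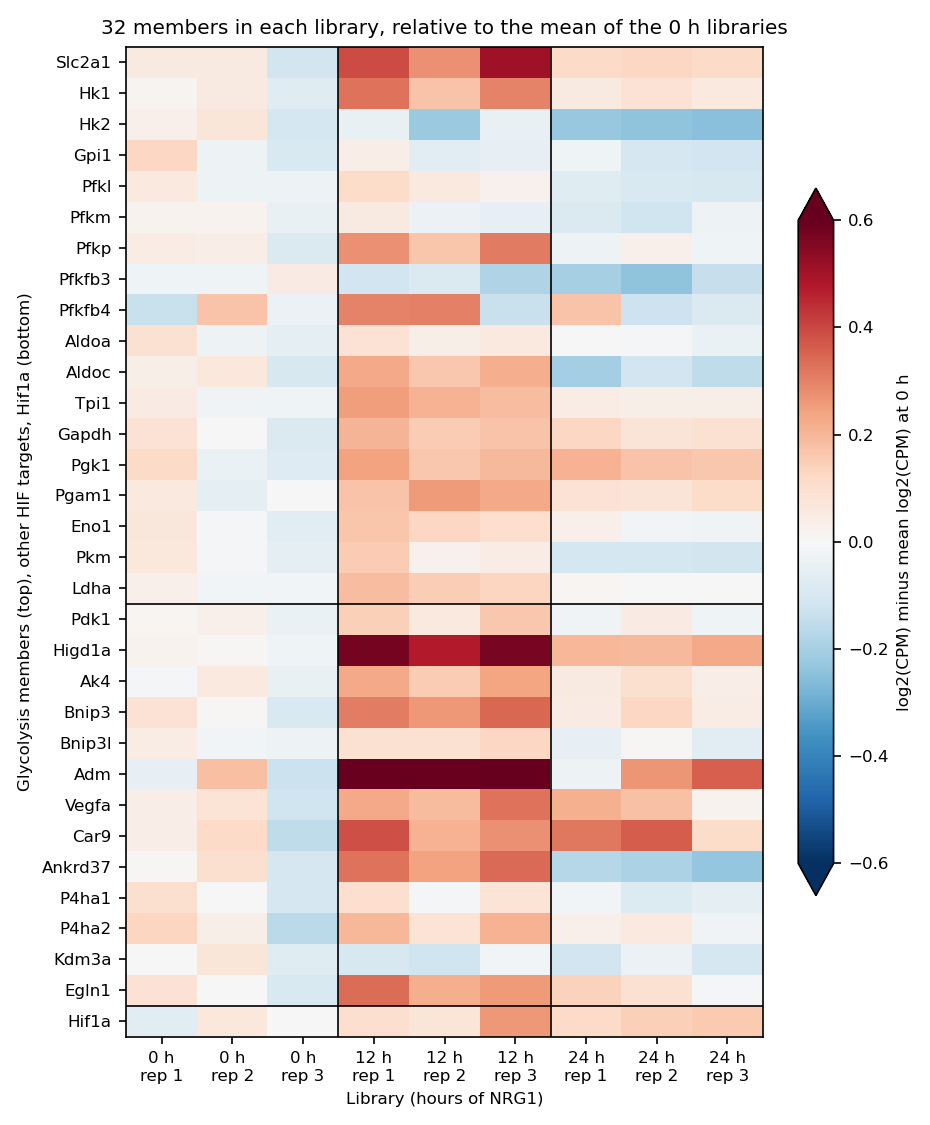
Log2 CPM of 32 tested members (rows) in each of the 9 libraries (columns), minus the gene's mean over the 3 libraries at 0 h; red is higher and blue lower, and colors saturate at 0.6. Slc16a3 and the second Aldoa identifier, both with few counts, are left out, and the band of red in the 12 h columns covers most rows, while Hk2, Gpi1, Pfkm, Pfkfb3 and Kdm3a have mean values below 0 there.

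Because these genes are grouped by a shared regulator, their promoters are shown before their values. Promoter windows of the 250 bases before a RefSeq transcription start were found for 33 of the 35 symbols with a row, in 52 windows (GRCm38.p6), some of which are alternative starts of the same gene. The core ACGTG or GCGTG, which is the letter pattern that HIF dimers are known to bind, was searched for on both strands. It was present in 41 of the 52 windows (78.8%), against 38.6% of 32851 promoters in the genome and 51.7% of 15296 windows of genes in the count table. The core overlaps the E-box CACGTG, known as the motif of MYC, and every E-box holds the core on both strands. An E-box was present in 6 member windows (11.5%), against 6.02% and 7.60%. Member windows were richer in G and C, with a median of 62.2%, than promoters at large at 52.4% and those of genes in the table at 58.4%, and the part of base composition in the share with a core was not tested. A core was found for 19 of the 20 matched genes that were higher at 12 h and for 11 of the 12 tested genes that did not pass.

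The stretches upstream of the start for 6 members are printed from 5′ to 3′ on the strand of the gene, with every core in capitals; CACGC and CACGT are the core read on the other strand. Adm, Ankrd37 and Bnip3 are shown as other HIF targets among the largest changes, Ldha and Pgk1 as glycolytic members with different values at 24 h, and Hk2 as a member that did not rise. Adm lies at chr7:110627407-110627656 (+ strand), Ankrd37 at chr8:45999868-46000100 (− strand), Bnip3 at chr7:138909520-138909756 (− strand), Ldha at chr7:46845554-46845803 (+ strand), Pgk1 at chrX:106186850-106187099 (+ strand) and Hk2 at chr6:82774455-82774704 (− strand). None of these stretches holds an annotated exon.
Adm: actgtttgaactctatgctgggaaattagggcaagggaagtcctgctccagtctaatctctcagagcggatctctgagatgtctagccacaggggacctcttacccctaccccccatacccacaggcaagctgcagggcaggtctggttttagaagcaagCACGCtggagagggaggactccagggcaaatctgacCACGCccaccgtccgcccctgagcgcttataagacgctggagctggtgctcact
Ankrd37: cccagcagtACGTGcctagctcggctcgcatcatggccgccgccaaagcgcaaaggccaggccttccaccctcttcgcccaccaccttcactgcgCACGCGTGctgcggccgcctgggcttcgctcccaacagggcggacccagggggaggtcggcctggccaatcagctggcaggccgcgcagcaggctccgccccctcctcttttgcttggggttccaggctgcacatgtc
Bnip3: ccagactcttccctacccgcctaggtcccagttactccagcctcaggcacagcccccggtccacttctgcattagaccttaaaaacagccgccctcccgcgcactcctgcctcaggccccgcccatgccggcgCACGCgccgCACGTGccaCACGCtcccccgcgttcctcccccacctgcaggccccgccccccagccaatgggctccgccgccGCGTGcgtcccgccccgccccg
Ldha: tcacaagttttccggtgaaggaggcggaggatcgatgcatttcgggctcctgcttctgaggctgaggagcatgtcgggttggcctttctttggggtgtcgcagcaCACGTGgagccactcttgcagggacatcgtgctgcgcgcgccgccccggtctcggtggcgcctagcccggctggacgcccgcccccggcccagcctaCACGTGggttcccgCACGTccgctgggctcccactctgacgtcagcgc
Pgk1: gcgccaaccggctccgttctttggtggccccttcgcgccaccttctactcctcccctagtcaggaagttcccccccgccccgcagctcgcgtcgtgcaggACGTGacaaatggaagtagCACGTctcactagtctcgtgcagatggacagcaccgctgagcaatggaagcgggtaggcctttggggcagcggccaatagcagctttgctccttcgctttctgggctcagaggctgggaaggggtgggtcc
Hk2: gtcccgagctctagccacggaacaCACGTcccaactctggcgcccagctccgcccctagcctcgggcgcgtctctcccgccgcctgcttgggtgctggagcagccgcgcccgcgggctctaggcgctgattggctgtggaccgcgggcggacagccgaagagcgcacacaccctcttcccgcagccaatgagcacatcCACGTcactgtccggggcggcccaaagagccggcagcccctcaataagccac
Bnip3 and Ldha have the most matches of these, 5 each. Both strands were counted, so each E-box gives 2 matches, and Ldha holds 2 E-boxes and Bnip3 1. Another Ldha window, at chr7:46846832-46847081 and not printed, has 1 match and no E-box. The Ankrd37 stretch has 3 matches, and its full window of 250 bases has 4. Adm, Pgk1 and Hk2 have 2 each, so Hk2 carried as many as Adm. A match describes letters in this window and is not a binding site.

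Glucose enters through Slc2a1, and its rise at 12 h was not maintained at 24 h. Slc2a1, the transporter GLUT1 (ENSMUSG00000028645.11, chr4:119108711-119137983, GRCm38), was at 423, 424 and 379 CPM at 0 h, at 535, 494 and 581 CPM at 12 h, and at 442, 445 and 442 CPM at 24 h. The 12 h libraries stood above the rest and the 24 h libraries lay barely above those at 0 h. Its log2 fold change was 0.39 ± 0.053 (SE) at 12 h (1.31-fold, edgeR adjusted p = 4.32e-05), the largest rise of a glycolysis member that passed, and 0.12 at 24 h (adjusted p = 0.147). From 12 h to 24 h it fell by 0.28 on the log2 scale (adjusted p = 0.00597).

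Hexokinases trap glucose in the cell as glucose 6-phosphate. Hk1, the broadly expressed form (ENSMUSG00000037012.18, chr10:62268855-62379908), was at 347, 355 and 326 CPM at 0 h, at 429, 386 and 420 CPM at 12 h and at 355, 364 and 357 CPM at 24 h. It rose by 0.26 ± 0.043 on the log2 scale at 12 h (adjusted p = 2.62e-04) and fell by 0.20 from 12 h to 24 h (adjusted p = 0.0132). That later fall did not pass without 12 h replicate 1, 24 h replicate 1 or 24 h replicate 3. Hk2, the inducible form that is best known as a HIF and MYC target (ENSMUSG00000000628.10, chr6:82725025-82774454), was at 395, 407 and 359 CPM at 0 h, at 374, 331 and 374 CPM at 12 h and at 330, 327 and 324 CPM at 24 h. Its libraries at 0 h and 12 h overlapped, and those at 24 h were the lowest. The log2 fold change of Hk2 was -0.10 at 12 h (adjusted p = 0.142) and it fell by 0.24 ± 0.050 at 24 h (adjusted p = 0.00276). The 12 h value passed without 0 h replicate 3, where it was -0.15.

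Of the phosphofructokinase subunits, which catalyze the committed step, Pfkp rose by 0.25 at 12 h (adjusted p = 5.47e-04) and fell by 0.26 from 12 h to 24 h (adjusted p = 0.0028), while Pfkl, the most abundant per kilobase of exon, and Pfkm did not pass at 12 h, with 0.06 and -0.01. Pfkl fell by 0.15 from 12 h to 24 h (adjusted p = 0.0216), a call that was lost on leaving out any single 24 h library, 12 h replicate 1 or 12 h replicate 2. Pfkm shares 10.7% of its exonic bases with other genes. Pfkfb3 and Pfkfb4 make and degrade the phosphofructokinase activator fructose 2,6-bisphosphate. Pfkfb3, like Hk2, did not rise: its log2 fold change was -0.13 at 12 h (adjusted p = 0.0636), although all 3 libraries lay below those at 0 h, and it fell by 0.19 at 24 h (adjusted p = 0.0104), not passing without 0 h replicate 3 or 24 h replicate 2. Pfkfb4, at 6.92 to 9.36 CPM, did not pass in any comparison. Gpi1, the isomerase between hexokinase and phosphofructokinase, which shares 11.5% of its exonic bases with a gene on the other strand, was at -0.03, -0.08 and -0.06 in the 3 comparisons and did not pass.

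Aldolase cleaves the phosphorylated hexose, and Aldoc, but not Aldoa, passed in all 3 comparisons. Aldoc (ENSMUSG00000017390.15, chr11:78322968-78327781) was at 215, 219 and 196 CPM at 0 h, at 246, 235 and 244 CPM at 12 h and at 182, 194 and 189 CPM at 24 h. All 12 h libraries were above, and all 24 h libraries below, those at 0 h. Aldoc rose by 0.20 ± 0.043 at 12 h (adjusted p = 0.00229) and fell by 0.36 from 12 h to 24 h (adjusted p = 2.00e-04). At 24 h its log2 fold change against 0 h was -0.16 (adjusted p = 0.0179). The last call was lost in 4 of 9 fits that left out a library, without 0 h replicate 1 or 2 and without 24 h replicate 1 or 3. Aldoa, at ENSMUSG00000030695.16 (chr7:126795234-126800751), lay between 3033 and 3366 CPM and had values of 0.06, -0.02 and -0.08, none of which passed. The second Aldoa identifier, ENSMUSG00000114515.2, lies just beside it at chr7:126800790-126809108, had at most 63 counts in a library, and did not pass either.

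From the triose phosphates to pyruvate, 5 of the 6 tested enzymes rose at 12 h, against 13.6% of all genes tested. Pkm, at 0.08, did not pass. Tpi1, Pgk1, Pgam1 and Gapdh rose by 0.21, 0.20, 0.22 and 0.17 on the log2 scale, with adjusted p-values between 2.04e-04 and 0.00385, and Eno1 rose by 0.13 (adjusted p = 0.0172, lost without 0 h replicate 3 or 12 h replicate 1). Gapdh (ENSMUSG00000057666.18, chr6:125161715-125166467), the dehydrogenase of the pathway and a common reference gene, was at 4614, 4349 and 4098 CPM at 0 h, at 5005, 4838 and 4895 CPM at 12 h and at 4733, 4595 and 4626 CPM at 24 h. The 12 h libraries did not overlap those at 0 h, and the 24 h libraries overlapped them, with a log2 fold change of 0.10 (adjusted p = 0.112).

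Pgk1, which makes the first ATP of the pathway, stayed up: it was at 6247, 5617 and 5462 CPM at 0 h, at 6819, 6457 and 6593 CPM at 12 h and at 6672, 6494 and 6444 CPM at 24 h. Its log2 fold change was 0.18 ± 0.044 at 24 h (adjusted p = 0.00908) and -0.02 from 12 h to 24 h (adjusted p = 0.859), and it was the only glycolysis member to pass as higher at 24 h than at 0 h. Tpi1 fell by 0.18 from 12 h to 24 h (adjusted p = 0.00636), a call lost without 24 h replicate 3. Pkm, pyruvate kinase, had an adjusted p of 0.174 at 12 h and fell by 0.18 from 12 h to 24 h (adjusted p = 0.012), a call lost when any 24 h library was left out. Of its exonic bases, 15.3% overlap a gene on the same strand. Eno2, the neuronal enolase, had at most 1 count in a library and was not tested.

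Ldha, which makes lactate (ENSMUSG00000063229.15, chr7:46841475-46855627), was at 3675, 3559 and 3554 CPM at 0 h, at 4088, 3988 and 3938 CPM at 12 h and at 3621, 3605 and 3604 CPM at 24 h. The 12 h libraries stood above all others and those at 24 h fell inside the range at 0 h. It rose by 0.16 ± 0.032 at 12 h (adjusted p = 0.00178) and fell by 0.15 from 12 h to 24 h (adjusted p = 0.0124), the fall being lost when any 24 h library was left out. Slc16a3, the lactate exporter MCT4, was nearly silent, with 14 to 39 counts per library, and its log2 fold change of 0.77 ± 0.365 at 12 h did not pass (adjusted p = 0.139). Slc16a1, the transporter MCT1, is no member and is named after a look at its values: it stood at 298 CPM at 0 h and 333 CPM at 12 h and rose by 0.16 (adjusted p = 0.00134).

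Per kilobase of exon, Pgk1 was the most abundant glycolysis member at 0 h, at 2574 CPM per kb, followed by Pkm at 1647. Aldoa, Ldha and Gapdh came next at 1087, 1086 and 1053, which do not differ beyond their spread. Tpi1, Eno1, Pgam1 and Gpi1 followed at 651, 509, 353 and 264, ahead of Slc2a1 at 117 and Pfkl at 108. Hk2 and Aldoc, at 64.8 and 64.4, were level with each other and above Hk1 at 40.1. The length used was the union of all annotated exons of a gene. It was 2244 bases for Pgk1, 4133 for Gapdh, 5969 for Hk2 and 8532 for Hk1. Transcripts in use can be shorter than that union, so the order depends on the annotation and is approximate. Together the glycolysis members took 3.48% ± 0.127 (SD, n = 3) of a 0 h library, then 3.79% ± 0.0849 at 12 h, with 3.52% ± 0.0476 at 24 h. Many of these enzymes have processed pseudogenes in the mouse genome, and it was not stated what became of reads that match more than 1 place.

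**Figure D2:**
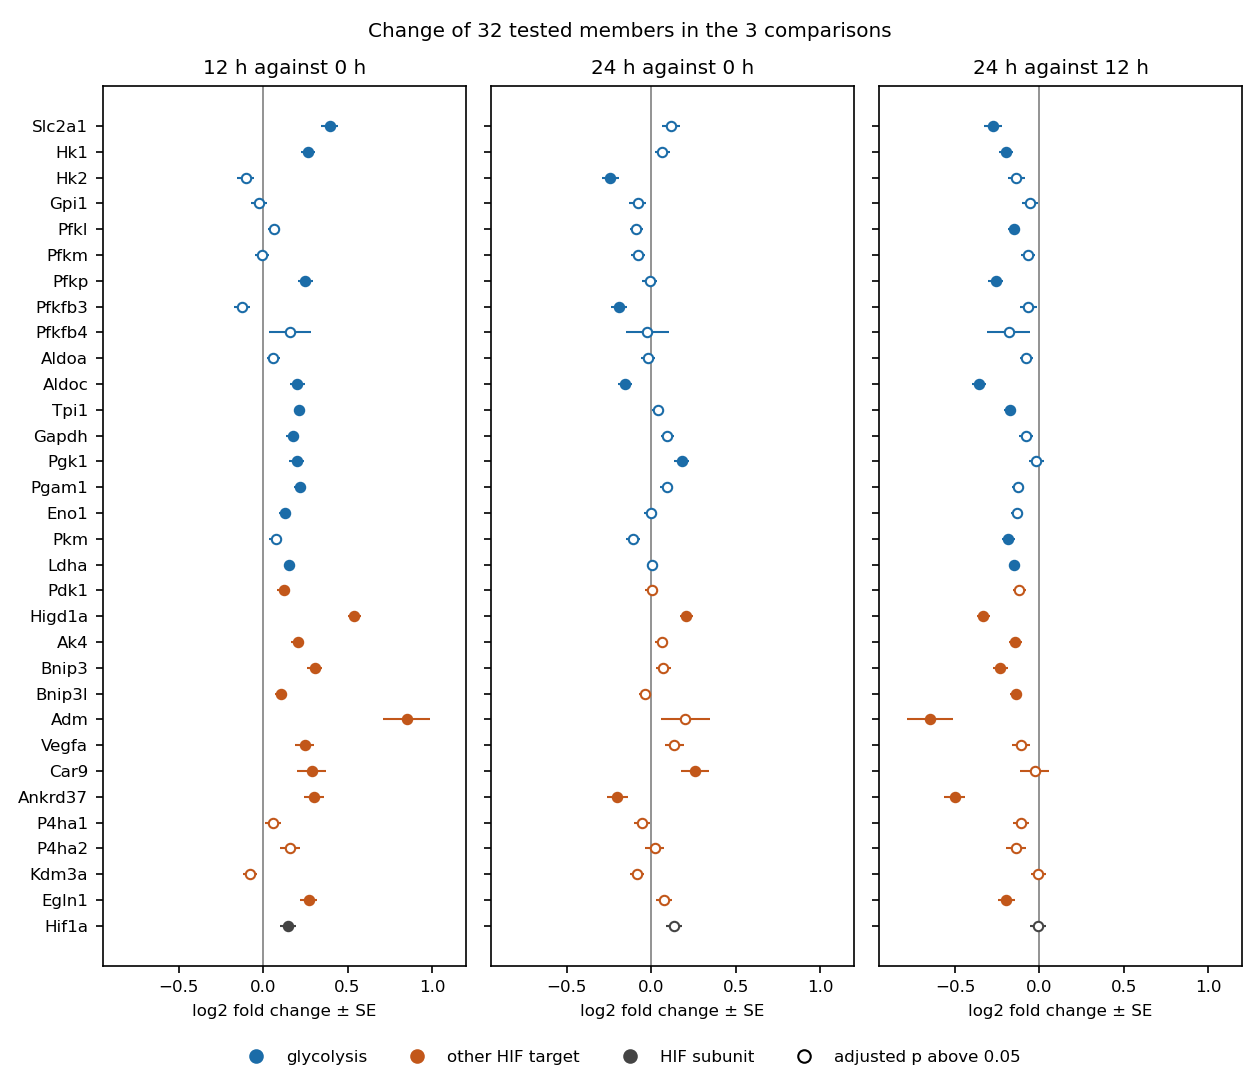
Log2 fold change with its standard error (horizontal axis) of 32 tested members (rows) in the 3 comparisons; filled points passed an adjusted p of 0.05 and open points did not. At 12 h against 0 h the filled points all lie to the right of 0, at 24 h against 12 h they all lie to the left, and at 24 h against 0 h 3 lie to the right and 4 to the left.

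Of the 13 other HIF targets tested, 10 (76.9%) were higher at 12 h, against 13.6% of all genes, and none was lower, against 11.9%, also at an unadjusted p under 0.05 (0) and by DESeq2 (0). Their median log2 fold change at 12 h was 0.25, beside 10 of 20 higher (50%) and a median of 0.16 for the glycolysis members, and the difference between the classes was not tested. At 24 h against 0 h, 2 (15.4%) were higher and 1 (7.69%) was lower, with a median of 0.06, beside 1 higher (5%), 3 lower (15%) and a median of -0.01 for glycolysis. The shares over all genes in that comparison were 9.67% higher and 7.76% lower. From 12 h to 24 h, 7 of the 13 (53.8%) fell, with a median of -0.14, and 8 of the 20 glycolysis members (40%), also with a median of -0.14, against 3.06% of all genes. Without 24 h replicate 1 the counts that fell were 3 and 4, and without 12 h replicate 1 the other HIF targets that fell were 3. Averaged over the members of a class and set to 0 at 0 h, log2 CPM of the glycolysis members was 0.16, 0.10 and 0.15 in the 12 h libraries and 0.04, -0.02 and -0.04 in the 24 h libraries. The other HIF targets were at 0.30, 0.19 and 0.29 at 12 h and at 0.05, 0.09 and 0.02 at 24 h. Replicate 2 was the lowest of the 12 h libraries in both classes.

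Among proteins of the mitochondrion, Higd1a, an inner membrane protein tied to respiratory complexes (ENSMUSG00000038412.8, chr9:121848563-121858362), gave the smallest p of any member at 12 h. It was at 115, 114 and 111 CPM at 0 h, at 169, 158 and 168 CPM at 12 h and at 130, 130 and 133 CPM at 24 h. The 3 times did not overlap, and the 24 h libraries lay between the other 2. Higd1a rose by 0.54 ± 0.038 at 12 h (1.45-fold, adjusted p = 1.44e-07), was still up by 0.21 at 24 h (adjusted p = 9.28e-04), and fell by 0.33 from 12 h to 24 h (adjusted p = 1.65e-04). A gene on the other strand covers 22.5% of its exonic bases, and whether the counting used strand was not stated. Pdk1, the kinase that shuts pyruvate dehydrogenase, rose by 0.12 at 12 h (adjusted p = 0.0315), and Ak4, a mitochondrial adenylate kinase, by 0.21 (adjusted p = 9.04e-04). The call for Pdk1 was lost without 0 h replicate 1 or 3 and without 12 h replicate 1 or 3. Ak4 fell by 0.14 from 12 h to 24 h (adjusted p = 0.04), lost on leaving out any single 24 h library, 12 h replicate 1 or 12 h replicate 3.

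The mitophagy receptors Bnip3 and Bnip3l tag mitochondria for removal. Bnip3 (ENSMUSG00000078566.8, chr7:138890836-138909519) was at 555, 525 and 491 CPM at 0 h, at 647, 627 and 665 CPM at 12 h and at 542, 570 and 539 CPM at 24 h. The 12 h libraries stood above both other times, which overlapped. It rose by 0.30 ± 0.043 at 12 h (1.23-fold, adjusted p = 8.07e-05) and fell by 0.23 from 12 h to 24 h (adjusted p = 0.00526), and 22.3% of its exonic bases lie under a gene on the other strand. Bnip3l rose by 0.10 at 12 h (adjusted p = 0.0388), a call that was lost in 7 of 9 fits that left out a library. From 12 h to 24 h Bnip3l fell by 0.14 (adjusted p = 0.0297), a call lost in 5 of 9 such fits.

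Of the secreted and surface proteins, Adm (ENSMUSG00000030790.15, chr7:110627661-110629820) was the least abundant and changed by the largest factor. It was at 3.58, 4.21 and 3.40 CPM at 0 h, at 7.60, 5.85 and 6.75 CPM at 12 h and at 3.64, 4.46 and 4.76 CPM at 24 h. All 12 h libraries were above all others, and the 24 h libraries overlapped those at 0 h. Adm rose by 0.85 ± 0.138 at 12 h (1.80-fold, adjusted p = 2.63e-04), and fell by 0.65 ± 0.135 from 12 h to 24 h (adjusted p = 0.0109). The fall did not pass without 12 h replicate 1 or 24 h replicate 1, and its value was then no nearer to 0 than -0.54. Its log2 fold change of 0.20 at 24 h against 0 h did not pass (adjusted p = 0.384). Vegfa, the vascular growth factor, rose by 0.25 at 12 h (adjusted p = 0.00416) and did not pass in the other comparisons, with 0.14 and -0.11. Car9, a carbonic anhydrase of the cell surface at 15.4 CPM at 0 h, was higher by 0.29 at 12 h (adjusted p = 0.0202) and by 0.26 at 24 h (adjusted p = 0.0462). Neither call held in every fit: the first was lost without 0 h replicate 3 or 12 h replicate 1, and the second in 5 of 9 fits, those without 0 h replicate 1 or 3, 12 h replicate 1, or 24 h replicate 1 or 2.

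Ankrd37, a small ankyrin repeat protein used in hypoxia signatures (ENSMUSG00000050914.16, chr8:45996902-46005707), was at 24.3, 25.9 and 22.6 CPM at 0 h, at 30.3, 28.6 and 30.6 CPM at 12 h and at 21.5, 21.2 and 20.6 CPM at 24 h. It rose above the 0 h libraries at 12 h and lay below them at 24 h, with no overlap, as Aldoc did. Its log2 fold change was 0.30 ± 0.060 at 12 h (adjusted p = 0.00152), -0.50 ± 0.061 from 12 h to 24 h (adjusted p = 2.22e-04) and -0.20 ± 0.062 at 24 h against 0 h (adjusted p = 0.0317), the last being lost in 5 of 9 fits, each leaving out 0 h replicate 1, 0 h replicate 2 or a single 24 h library. Of its exonic bases, 26.4% overlap the genes Lrp2bp and Ufsp2 on the other strand. Ndrg1, a frequently used hypoxia marker, had at most 3 counts in a library and none at 0 h, so it was not detectable at this depth, where 3 counts are 0.0764 to 0.106 CPM.

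**Figure D3:**
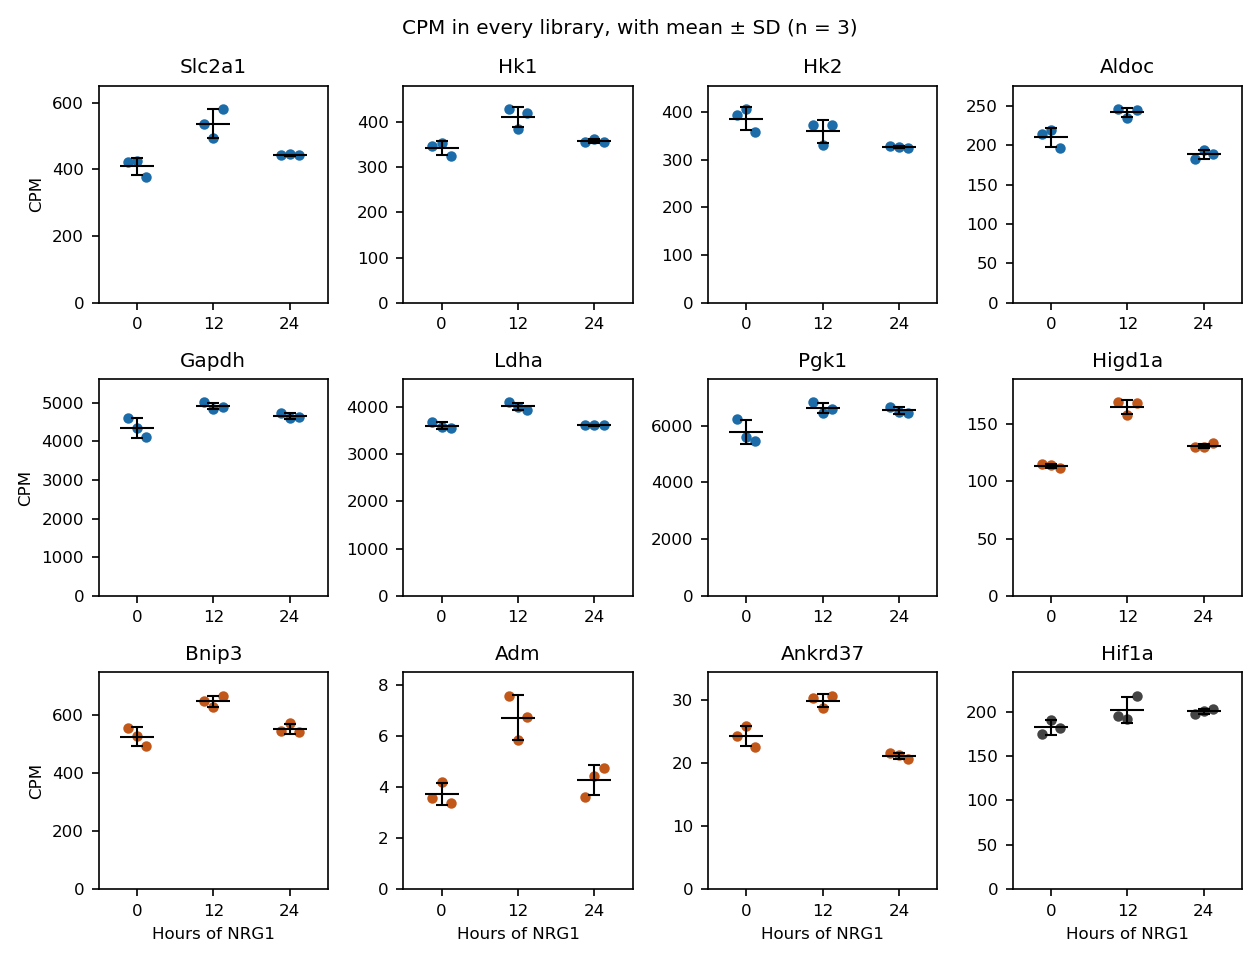
CPM of 12 members in each library (points), with the mean and SD of 3 libraries (line and bars), against hours of NRG1; every axis starts at 0, blue is glycolysis, orange other HIF targets and grey Hif1a. The 12 h points lie above the 0 h points in all panels but Hk2, where those groups overlap, and in Hk2, Aldoc and Ankrd37 the 24 h points fall below those at 0 h.

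Dioxygenases need oxygen as a substrate and some are themselves HIF targets. Egln1, the prolyl hydroxylase PHD2 that marks HIF alpha subunits, rose by 0.27 ± 0.048 at 12 h (1.21-fold, adjusted p = 6.15e-04), from 477 ± 29.3 (SD, n = 3) to 574 ± 24.6 CPM, and was 501 ± 25.1 CPM at 24 h. It fell by 0.20 from 12 h to 24 h (adjusted p = 0.0267), a call lost on leaving out 12 h replicate 1 or any single 24 h library. The collagen prolyl hydroxylase subunits P4ha1 and P4ha2 and the histone demethylase Kdm3a were the other HIF targets that did not pass in any comparison. Their log2 fold changes at 12 h were 0.06, 0.16 and -0.08, with an adjusted p of 0.0528 for P4ha2.

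Hif1a (ENSMUSG00000021109.13, chr12:73901375-73947530) was at 174, 191 and 182 CPM at 0 h, at 195, 192 and 218 CPM at 12 h and at 197, 201 and 203 CPM at 24 h. The 12 h libraries were above those at 0 h by a narrow margin, replicate 3 at 12 h being the highest of all. It rose by 0.15 ± 0.047 at 12 h (adjusted p = 0.0314), which did not pass without that library, without 0 h replicate 1 or 3, or with only the 6 libraries compared (adjusted p = 0.0669). At 24 h its log2 fold change against 0 h was 0.14 ± 0.047 (adjusted p = 0.0577), with an adjusted p between 0.0119 and 0.0483 under DESeq2, total counts, no filter, the replicate block or 6 libraries. From 12 h to 24 h its value was -0.01 (adjusted p = 0.938), turning to 0.0043 with total counts. These values are transcript levels, and HIF-1 alpha protein was not measured in these libraries.

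Isozymes and paralogs were set against each other as ratios of CPM within a library, which do not depend on library scaling, for 7 pairs chosen with earlier values known, and they are given as a description with no test. The ratio of Hk2 to Hk1 was 1.14, 1.15 and 1.1 at 0 h, 0.873, 0.859 and 0.891 at 12 h, and 0.930, 0.899 and 0.909 at 24 h. It was lower at both later times than at 0 h, and did not overlap in any comparison. The ratio of Bnip3 to Bnip3l rose from a mean of 1.38 ± 0.0523 (SD, n = 3) to 1.58 ± 0.0302 at 12 h and was 1.49 ± 0.00889 at 24 h, again with no overlap. Aldoc against Aldoa went from 0.0665 ± 0.00386 to 0.0733 ± 0.000776 and then 0.0604 ± 0.00226. Pfkp against Pfkl was higher at 12 h, at 0.797 ± 0.0513 beside 0.700 ± 0.0323, and overlapped at 24 h, at 0.739 ± 0.0197. Pfkfb3 against Pfkfb4 overlapped in all 3 comparisons.

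**Figure D4:**
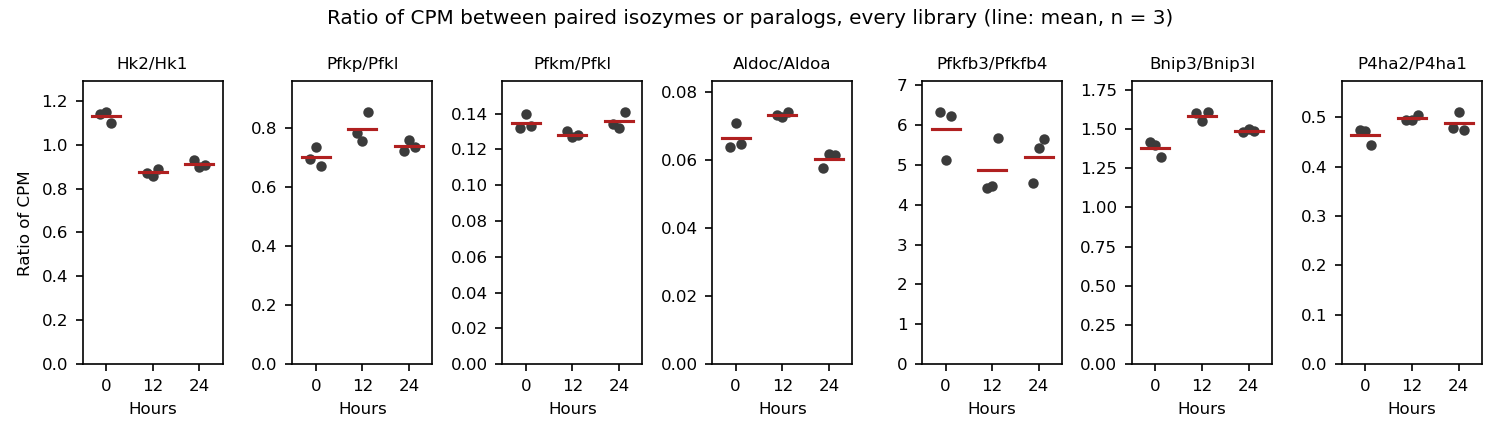
Ratio of CPM for 7 pairs of isozymes or paralogs in each library (points) at 0, 12 and 24 h, with the mean of 3 libraries (red line); each axis starts at 0, and ratios are not corrected for gene length. Hk2/Hk1 drops from 1.13 to 0.874 at 12 h and stays at 0.913 at 24 h, while Bnip3/Bnip3l goes from 1.38 to 1.58 and 1.49.

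Further lists of adjoining pathways, chosen with earlier results known, were counted in the same fit. Of 25 further HIF targets tested, 17 (68%) were higher and 1 (4%) was lower at 12 h, against 13.6% and 11.9% of all genes, and their median was 0.20 on the log2 scale. At 24 h against 0 h, 5 (20%) were higher and 2 (8%) lower, against 9.67% and 7.76% of all genes, with a median of 0.07. Of the same 25, 10 (40%) were lower and 1 (4%) higher at 24 h against 12 h, against 3.06% and 1.97% of all genes. Among them Pgf, a placental growth factor, had a fitted log2 fold change of 2.04 at 12 h on at most 23 counts per library. Car12, another carbonic anhydrase, had 1.33 on at most 40 counts.

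Pentose phosphate genes belong to a pathway that branches from glucose 6-phosphate to make NADPH and ribose. Of 8 tested, 5 (62.5%) were higher at 12 h, against 13.6% of all genes, with a median of 0.14. None was lower, against 11.9% of all genes, also at an unadjusted p under 0.05 (0) and by DESeq2 (0). Rpia rose by 0.35, Taldo1 by 0.20 and Pgd by 0.16. None of the 8 passed at 24 h against 0 h, where 9.67% of all genes were higher and 7.76% lower. By DESeq2 none passed either (0), and 2 were higher at an unadjusted p under 0.05. From 12 h to 24 h, 3 (37.5%) fell, against 3.06% of all genes. Of 30 genes of pyruvate entry and the tricarboxylic acid cycle 5 (16.7%) were higher and 3 (10%) lower at 12 h, near the 13.6% and 11.9% of all genes, with a median of 0.01. At 24 h against 0 h none of the 30 was higher, against 9.67% of all genes, also by DESeq2 (0), with 1 at an unadjusted p under 0.05. In the same comparison 4 (13.3%) were lower, against 7.76% of all genes. Pdk3, a pyruvate dehydrogenase kinase like Pdk1, rose by 0.26 at 12 h (adjusted p = 7.09e-04) and fell by 0.31 thereafter, whereas Pdk2 fell by 0.23 at 12 h (adjusted p = 0.0128). Idh3g, a subunit of isocitrate dehydrogenase, fell by 0.13 at 12 h and by 0.16 at 24 h.

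Of 20 other genes of glycolysis, isozymes and adjoining steps, 5 (25%) were higher and 3 (15%) lower at 12 h, against 13.6% and 11.9% of all genes, with a median of 0.09. Galm, which interconverts the anomers of hexoses, fell by 0.40 at 12 h (adjusted p = 4.27e-04) and by 0.26 at 24 h. Pck2, the mitochondrial enzyme that makes phosphoenolpyruvate from oxaloacetate, was higher by 0.27 at 12 h and by 0.38 at 24 h (adjusted p = 1.33e-05). Slc2a6, a hexose transporter, was at 0.13 at 12 h and rose by 0.41 at 24 h (adjusted p = 0.0244). Of 13 tested genes of the machinery that regulates HIF, 2 (15.4%) were higher and 1 (7.69%) lower at 12 h, near the 13.6% and 11.9% of all genes, with a median of 0.02. Vhl, the ubiquitin ligase subunit that recognizes hydroxylated HIF alpha, rose by 0.19 at 12 h (adjusted p = 0.011), Cited2, which competes with HIF for its coactivators, rose by 0.12, and Hif3a fell by 0.12 at 12 h and by 0.15 at 24 h.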

How the data were processed

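RNA of 9 MyC-CaP libraries, 3 at each of 0 h, 12 h and 24 h, was sequenced as paired-end mRNA libraries. The authors trimmed reads with Cutadapt, aligned them to GRCm38.p6 with STAR and counted them per gene with featureCounts, and the deposited values are raw counts. The strand setting and the treatment of reads matching several genes were not stated.

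In edgeR 4.0.16 (R 4.3.3), low counts were removed by filterByExpr and libraries scaled by TMM. A single glmQLFit model held the 9 libraries, and times were compared by glmQLFTest with Benjamini-Hochberg adjustment over the 11373 genes tested. A gene passed at an adjusted p of at most 0.05. CPM use TMM-scaled library sizes, log2 CPM a prior count of 2, and exonic lengths a GENCODE annotation of GRCm38. Procedures were tested on simulated data. DESeq2 1.42.0 was an alternative, with other scalings, no filter, fewer libraries, a replicate block and libraries left out.

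Values in every library are given for members that passed with an absolute log2 fold change of at least 0.3, and for Hif1a, Hk1, Hk2, Gapdh and Ldha; Pgk1 was added after its values were seen. Up to 3 genes are named per further list. Some genes that these lists or rules name are not reported here, and no others took their place. The members and lists were chosen with earlier results of these data known.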

Additional observations from a re-analysis of the deposited data

How the results depend on the processing

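Depth limits Eno2, Ndrg1, Slc16a3 and the second Aldoa identifier, and with 3 libraries per time some single calls at small fold changes rest on 1 library. The class medians moved by less than the spread between replicates under every setting tried; that of the glycolysis members at 24 h against 0 h lay on both sides of 0, from -0.04 to 0.02, when a library was left out. With a fold change of 1.5 required, 1, 0 and 1 members passed at 12 h against 0 h, 24 h against 0 h and 24 h against 12 h, in place of 21, 7 and 15. Without the filter on low counts, 11 members passed at 24 h against 0 h, and 2 glycolysis members were higher, as with only the 6 libraries of those times. Leaving out each library gave 17 to 22, 4 to 8 and 7 to 17 members in the 3 comparisons. At 12 h, 0 to 1 glycolysis members were then lower. At 24 h against 0 h, 1 to 3 glycolysis members and 1 to 3 other HIF targets were higher, and 0 to 1 other HIF targets were lower. At 24 h against 12 h, 3 to 10 glycolysis members and 3 to 7 other HIF targets were lower. Calls that passed in all 9 of these fits numbered 16 of 21, 3 of 7 and 6 of 15. The cause was not tested, beyond fewer libraries in each fit. The 24 h against 12 h value of Hif1a changed sign, to 0.0043 with total counts, and ranged from -0.0409 to 0.0435 when a library was left out, being above 0 without 24 h replicate 1 (0.0057) or 12 h replicate 3. With every scaling tried, the median log2 fold change of all genes lay between -0.0141 and 0.0161 in the 3 comparisons.

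No clear pairing of the samples by replicate number was seen. Of 9 same-numbered pairs, 1 had a correlation of deviations above 0.1, with a range from -0.074 to 0.131. Of 9 libraries, 4 correlated best with their own number. This check, on 3 libraries per time, cannot exclude a pairing. With the replicate block, 22, 9 and 16 members passed in the 3 comparisons.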
